A study of Homo sapiens with 4 samples.

Results

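Genes that recognise uracil in DNA, remove it and repair or bypass the lesion that remains were examined for binding of the cytidine deaminase A3B (APOBEC3B): UNG, SMUG1, MBD4, TDG, APEX1, XRCC1, POLB, LIG3, PARP1 and REV1. They are 10 of the 20033 protein-coding genes annotated on chromosomes 1 to 22, X and Y. A peak was counted at a gene when it overlapped the GENCODE gene body, over all transcripts and extended by 3 kb on both sides, by at least 1 bp of the GRCh38 genome. By this rule the genes held 11 of the 55486 A3B peaks of OMM2.3 on these chromosomes and 21 of the 135327 peaks of 92.1. The complete lists, with unplaced, alternate and mitochondrial sequences, held 56167 and 136678 peaks.

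A3B was measured by chromatin immunoprecipitation and sequencing (ChIP-seq) in OMM2.3 and 92.1, established human uveal melanoma lines, and the labels give no treatment for either. Each line had 1 library made with an antibody to A3B and 1 control library made with normal rabbit IgG, and peaks were called once per line against that control. Only the A3B libraries' peaks were analysed, and the read depth of the libraries was not given in the sources used here. With 1 library per group, the difference between the lines has no replicate check and was not tested. The intervals given below are exact 95% Poisson intervals that cover only the counting error of the peaks at the genes. The files hold no expression values, so the identity of the cells could not be checked against marker genes.

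A3B converts cytosine to uracil in single-stranded DNA, preferring a cytosine that follows a thymine (TC, read as GA on the opposite strand). Uracil DNA glycosylases cut the base out, an endonuclease nicks the abasic site, and a polymerase and a ligase held together by a scaffold protein fill and seal the gap. Where replication meets an abasic site first, translesion polymerases insert a base opposite it, which can fix a mutation.

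In OMM2.3, 4 of the 10 genes had a peak, XRCC1, LIG3, PARP1 and REV1, where 50.5% of all protein-coding genes did. In 92.1, 9 of the 10 genes had a peak, all but MBD4, where the share of all protein-coding genes was 73.6%. Since a long gene in a densely covered region meets more peaks than a short one elsewhere, each count was set against a local expectation, the number of peaks that the density within 1 Mb on either side would place over a window of that length. The 11 OMM2.3 peaks (interval 5.49 to 19.7) stood against 8.97 expected, a ratio of 1.23 (0.612 to 2.19). The 21 peaks of 92.1 (13 to 32.1) stood against 28.1 expected, a ratio of 0.746 (0.462 to 1.14). Both intervals held a ratio of 1, so neither sum differed from its surroundings beyond counting error. PARP1 held 5 of the 11 OMM2.3 peaks, and the other 9 genes had 6 peaks against 7.45 expected, a ratio of 0.805 (0.295 to 1.75).

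Gene by gene, PARP1 in OMM2.3 was the 1 gene whose interval lay wholly above its expectation, and 0 lay below. Over all protein-coding genes of OMM2.3 the shares were 1.67% above and 0.529% below. A count of 0 has an upper limit of 3.69, more than any of the 10 expectations in OMM2.3, so no gene there could lie below. In 92.1, 0 of the 10 genes lay above and 0 below, where 2.51% and 0.889% of all protein-coding genes did. Only SMUG1, POLB and PARP1 had an expectation above 3.69 in that line, so only they could lie below. The plot of peaks per gene shows that 6 genes were at 0 in OMM2.3 and that, PARP1 apart, the interval of every gene there crossed its expectation.

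**Figure D1:**
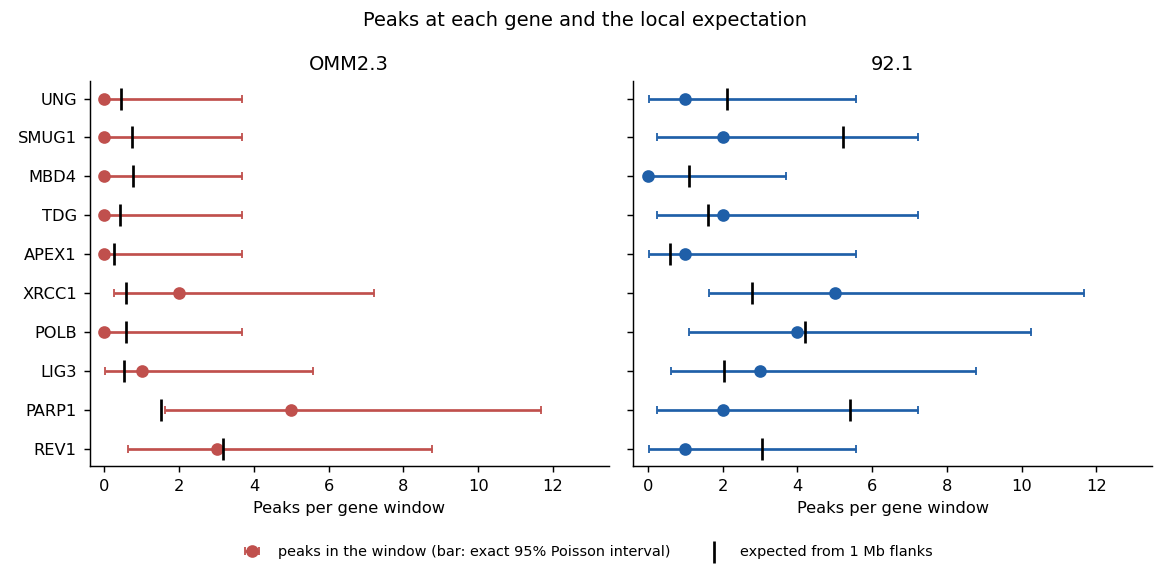
Number of A3B peaks in each gene window (points, peaks per window) with exact 95% Poisson intervals (bars) and the number expected from the peak density of the 1 Mb flanks (black ticks), for OMM2.3 on the left and 92.1 on the right. In OMM2.3 the bar of PARP1, at 5 peaks, starts just above its tick at 1.52, and the bars of the other 9 genes cross theirs, as all 10 do in 92.1.

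The sequence under 3 of the peaks is shown because A3B acts on the base after a thymine: the strongest peak of each line for which sequence was printed (TDG in 92.1, XRCC1 in OMM2.3) and the member peak with most TC or GA (PARP1). Each is centred on the summit, the position with most fragments, on the + strand of GRCh38, and capitals mark every TC and GA.
TDG (92.1, chr12:103973412-103973612): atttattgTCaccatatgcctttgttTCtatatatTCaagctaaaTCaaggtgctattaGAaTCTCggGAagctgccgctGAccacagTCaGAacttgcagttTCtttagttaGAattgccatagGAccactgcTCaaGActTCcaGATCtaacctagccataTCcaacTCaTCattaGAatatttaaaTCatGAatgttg
XRCC1 (OMM2.3, chr19:43544162-43544362): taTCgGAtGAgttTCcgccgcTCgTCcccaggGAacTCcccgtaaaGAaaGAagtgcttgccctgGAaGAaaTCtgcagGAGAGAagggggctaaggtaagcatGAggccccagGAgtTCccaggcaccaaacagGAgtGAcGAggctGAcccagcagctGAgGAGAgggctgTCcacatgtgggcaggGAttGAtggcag
PARP1 (OMM2.3, chr1:226376434-226376634): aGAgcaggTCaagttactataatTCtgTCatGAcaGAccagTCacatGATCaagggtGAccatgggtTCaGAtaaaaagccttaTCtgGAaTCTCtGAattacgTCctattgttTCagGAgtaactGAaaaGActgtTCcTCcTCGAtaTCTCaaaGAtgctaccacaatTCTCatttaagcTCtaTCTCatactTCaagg
The TDG sequence held 25 TC or GA, that of XRCC1 29 and that of PARP1 35. Across the 11 OMM2.3 summits there were 13.1 ± 2.55 per 100 bp (SD over peaks), where all OMM2.3 peaks had a mean of 12.4. Across the 21 summits of 92.1 there were 12.2 ± 2.45 per 100 bp, where all 92.1 peaks had 12.1. The complete windows of the 10 genes averaged 12.02 per 100 bp, which was within 1 SD of both means. The GC content at the summits was 48.2% ± 8.90 in OMM2.3 and 42.6% ± 7.38 in 92.1, against 45.1% over the gene windows.

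UNG encodes the main nuclear and mitochondrial uracil DNA glycosylase. The gene (ENSG00000076248.12, chromosome 12, 109097597 to 109126725, + strand) had 0 peaks in OMM2.3, against 0.443 expected. In 92.1 it had 1 peak, against 2.13 expected, a ratio of 0.471 (0.0119 to 2.62). Its summit lay 966 bp upstream of the transcription start, before all annotated transcripts, and it was the only one of the 32 member peaks within 1 kb of a canonical start. Its fold enrichment, the scaled fragments at the summit plus 1 over the IgG background plus 1, was 2.88, its −log10 p was 3.05, and it rested on 5 fragments. That −log10 p was at percentile 73.8 of the 92.1 list.

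SMUG1, a glycosylase that removes uracil from single- and double-stranded DNA, is annotated over a much longer body (ENSG00000123415.16, chromosome 12, 54121277 to 54189008, − strand) than its canonical transcript. The body spans 67732 bp and the canonical transcript 8620 bp. OMM2.3 had 0 peaks there, against 0.741 expected, and 92.1 had 2 against 5.22, a ratio of 0.383 (0.0464 to 1.38). The 92.1 summits lay 27.9 and 45.5 kb after the canonical start, in introns of longer transcripts, and the farther one also lay in the non-coding gene LINC02381. Counted over the canonical transcript, SMUG1 therefore had no peak in either line.

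MBD4, which excises uracil and thymine opposite guanine at methylated CpG sites, was the only gene with 0 peaks in both lines. Its body (ENSG00000129071.10, chromosome 3, 129430947 to 129440179, − strand) with the extension spans 15.2 kb. The expectation was 0.761 in OMM2.3 and 1.10 in 92.1, and a count of 0 has an upper limit of 3.69, so 0 peaks was not a detectable deficit. The nearest peak outside the window was 12.8 kb away in OMM2.3 and 2.74 kb away in 92.1.

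TDG removes thymine and uracil from mismatches with guanine and takes part in DNA demethylation. The gene (ENSG00000139372.15, chromosome 12, 103965822 to 103988874, + strand) had 0 peaks in OMM2.3, against 0.425 expected, and 2 in 92.1 against 1.61, a ratio of 1.24 (0.150 to 4.48). The stronger 92.1 peak lay in intron 1 of the canonical transcript of 10 exons, 7.64 kb after the start, with a fold enrichment of 3.20 and a −log10 p of 3.52. It was 546 bp wide, where the median width of the 92.1 list was 235 bp. The other lay in intron 9 with a fold enrichment of 2.13 and 3 fragments. Both stood over a background at its floor, 0.877 fragments, the genome-wide level that is used where IgG gives less.

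Together the 4 glycosylase genes had 0 peaks in OMM2.3 (upper limit 3.69), against 2.37 expected, and 5 in 92.1 (1.62 to 11.7) against 10.1, a ratio of 0.497 (0.161 to 1.16). Both intervals included the expectation.

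APEX1, the main endonuclease that cuts abasic sites, is the shortest of the genes (ENSG00000100823.12, chromosome 14, 20455191 to 20457772, + strand), at 2582 bp. It had 0 peaks in OMM2.3, against 0.266 expected, and 1 in 92.1 against 0.593, a ratio of 1.69 (0.0427 to 9.40). The 92.1 summit was 2.62 kb upstream of the canonical start and inside the neighbouring gene OSGEP. The peak was 572 bp wide, the widest of the member peaks, with a fold enrichment of 2.66, a −log10 p of 2.68 and 4 fragments.

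XRCC1, the scaffold that holds the polymerase and the ligase at the gap, had more than 1 peak in each line. The gene (ENSG00000073050.12, chromosome 19, 43543311 to 43580473, − strand) had 2 OMM2.3 peaks against 0.565 expected, a ratio of 3.54 (0.429 to 12.8), and 5 peaks of 92.1 against 2.78, a ratio of 1.80 (0.584 to 4.20). Both ratios were above 1 and both intervals included it. One OMM2.3 peak, with its summit in intron 14 of 17 exons, was the strongest member peak of that line. It had a fold enrichment of 3.44, a −log10 p of 3.94 (percentile 95.2 of the list) and 7 fragments. The other had its summit in intron 2, with a fold enrichment of 2.18 and 4 fragments. Both peaks also overlapped an exon.

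The 92.1 peaks of XRCC1 were spread from 4.39 kb before the canonical start to 20.4 kb after it, with 2 summits in intron 2, 2 in intron 3 and 1 in an intron of a longer transcript, where the gene PINLYP also lies. Their fold enrichment ran from 2.04 to 3.15 and their fragments from 3 to 5. The closest approach of the lines at XRCC1 was a gap of 4.86 kb between an OMM2.3 and a 92.1 peak. All 5 of the 92.1 peaks and 1 of the 2 OMM2.3 peaks also overlapped the annotated gene ENSG00000268361, and a peak cannot be assigned to one of overlapping genes.

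POLB, the polymerase that fills the gap of a single nucleotide, differed most between the lines by count. The gene (ENSG00000070501.12, chromosome 8, 42338454 to 42371808, + strand) had 0 peaks in OMM2.3, against 0.575 expected, and 4 in 92.1 against 4.21, a ratio of 0.951 (0.259 to 2.43). The 92.1 count was thus at the level of its surroundings, which were the densest of the 10 genes in that line. Intron 3 held 3 of the 4 summits, at 6.54, 7.05 and 8.65 kb after the start. The last of these was the strongest of the 21 member peaks of 92.1, with a fold enrichment of 3.32, a −log10 p of 3.96 (percentile 94.9) and 7 fragments. It was the only one of the 32 member peaks whose q-value was below 1 (−log10 q of 0.0782). Over the lists, the q-value was not below 1 for 127325 of the 135327 peaks of 92.1 and 54654 of the 55486 of OMM2.3. The fourth lay past the end of the gene, inside DKK4.

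LIG3, the ligase that seals the nick in complex with XRCC1, had 1 OMM2.3 peak against 0.515 expected, a ratio of 1.94 (0.0492 to 10.8), and 3 peaks of 92.1 against 2.04, a ratio of 1.47 (0.303 to 4.29). The gene lies on chromosome 17 (ENSG00000005156.12, 34980512 to 35009743, + strand). The OMM2.3 summit was in intron 18 of 20 exons, with a fold enrichment of 2.18, and the 92.1 summits were in intron 3, in intron 16 and in the untranslated part of the last exon. The intron 16 peak of 92.1 ended 711 bp before the OMM2.3 peak, and 54.7% of its 32-mers occurred more than once in the genome.

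PARP1 senses single-strand breaks and recruits XRCC1 by poly(ADP-ribosyl)ation. The gene (ENSG00000143799.14, chromosome 1, 226360210 to 226408154, − strand) had 5 peaks in OMM2.3 against 1.52 expected, a ratio of 3.29 (1.07 to 7.68). It had 2 peaks in 92.1 against 5.40 expected, a ratio of 0.370 (0.0449 to 1.34). The lines thus lay on opposite sides of their local expectation, and the OMM2.3 count was higher although its list held fewer peaks.

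The OMM2.3 peaks of PARP1 were spread over the gene, at 8.69, 13.2, 26.3, 31.6 and 39.8 kb after the start. Of these, 4 were intronic (introns 2, 2, 8 and 13 of 23 exons) and 1 lay in exon 16. Fold enrichment ran from 2.02 to 2.92, −log10 p from 1.45 to 2.96 and fragments from 4 to 6, and 0 of the 5 lay in repeated sequence. With peaks of a p of at most 0.01 alone, PARP1 kept 2 peaks against 1.33 expected, a ratio of 1.505 (0.182 to 5.44). The interval also reached below the expectation with an extension of 10 kb (ratio 2.62) and with flanks of 500 kb (2.79) or 2 Mb (2.90). In 92.1 the summits lay in introns 1 and 2, with fold enrichment of 2.40 and 1.91. The intron 2 peak was separated from an OMM2.3 peak by 87 bp, the smallest gap between the lines at any of the genes.

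APEX1, XRCC1, POLB, LIG3 and PARP1 together, the genes that act after the glycosylase, had 8 OMM2.3 peaks against 3.44 expected, a ratio of 2.33 (1.004 to 4.58), of which PARP1 gave 5. In 92.1 they had 15 against 15.02, a ratio of 0.999 (0.559 to 1.65). This grouping by role was made with the values known and is a description. The expectation was taken as exact, so lower limits close to 1, here and at PARP1 alone, leave out the counting error of the flanks.

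REV1, a translesion polymerase that inserts cytosine opposite abasic sites, has the longest body (ENSG00000135945.10, chromosome 2, 99400475 to 99490035, − strand). It had 3 peaks in OMM2.3 against 3.16 expected, a ratio of 0.949 (0.196 to 2.77), and 1 in 92.1 against 3.07, a ratio of 0.326 (0.00826 to 1.82). REV1 and PARP1 were the genes with more peaks in OMM2.3 than in 92.1. The OMM2.3 summits were in introns 1, 2 and 3 of 23 exons, 12.2, 26.6 and 36.3 kb after the start, with fold enrichment from 2.36 to 3.02. In 2 of the 3 the sequence was repeated, with 60% and 55.3% of 32-mers occurring more than once in the genome. The 92.1 peak lay in intron 17, 85.04 kb after the start, with a fold enrichment of 2.88.

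**Figure D2:**
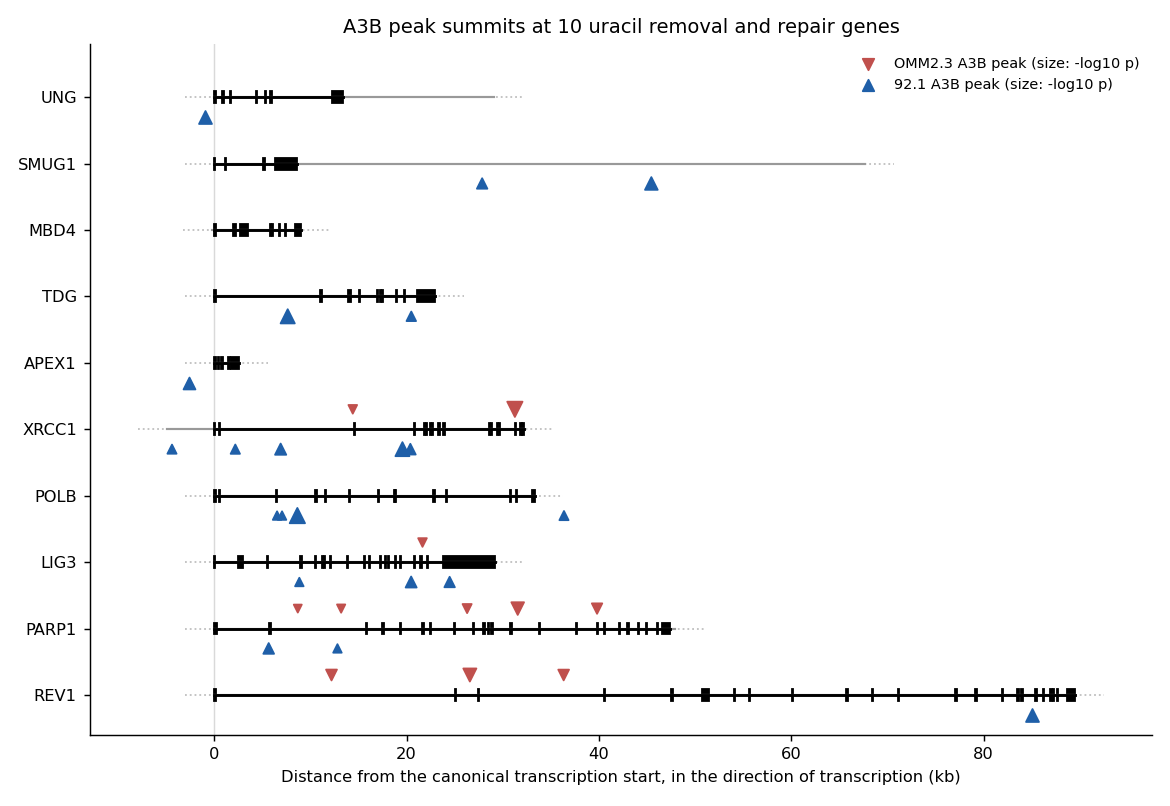
Summits of A3B peaks along each gene, by distance from the canonical transcription start in kb in the direction of transcription. Black ticks are exons of the canonical transcript, grey lines the body over all transcripts and dotted lines the 3 kb extension, with OMM2.3 as downward red triangles and 92.1 as upward blue triangles sized by −log10 p. The 11 OMM2.3 summits lie at XRCC1, LIG3, PARP1 and REV1, all more than 8 kb after the start, and MBD4 has none in either line.

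By the position of the summit alone, 10 of the 11 OMM2.3 peaks were intronic and 1 was exonic. Some peaks with an intronic summit also reached into an exon, as at XRCC1 and LIG3 in OMM2.3. Of the 21 summits of 92.1, 14 were in introns of the canonical transcript and 3 in introns of other transcripts. The others were 1 in the untranslated part of an exon, 2 upstream and 1 downstream of all transcripts. No OMM2.3 summit and 3 of 92.1, at UNG, APEX1 and XRCC1, lay within 3 kb of a canonical start. The nearest 92.1 peaks left out by the 3 kb limit lay 0.411 kb beyond the window at UNG and 0.727 kb beyond it at APEX1. Counting the start of every annotated transcript, 5 summits in each line were within 1 kb. These positions were not counted over all peaks of the lists, so they show no preference at the 10 genes. RefSeq promoter windows, from 250 bases before to 50 after the start, were matched for 9 of the 10 genes. Of these, 0 met a peak in OMM2.3 and 0 in 92.1, where 1.1% and 4.14% of all promoter windows did.

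No member peak overlapped a peak of the other line, 0 of 11 and 0 of 21. On chromosomes 1 to 22, X and Y, 3.62% of all OMM2.3 peaks and 1.48% of all 92.1 peaks overlapped. These shares were low enough that 0 of so few peaks does not stand apart from them. The gap from a member peak to the nearest peak of the other line had a median of 13.1 kb from the OMM2.3 side and 13.6 kb from the 92.1 side, up to 48.3 and 70.5 kb.

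At the median, the member peaks were weaker than their lists. In OMM2.3 their median fold enrichment was 2.36 and their median −log10 p 2.19, where all peaks had 2.60 and 2.34. In 92.1 the medians were 2.40 and 2.29, where all peaks had 2.66 and 2.68. The strongest member peaks, at XRCC1 and POLB, reached a −log10 p of 3.94 and 3.96, where the lists reached 21.7 and 68.4. None of the 32 member peaks had a q of 0.05 or less, a level that 235 peaks of OMM2.3 and 205 of 92.1 reached.

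The number of A3B fragments at each summit was recovered from the deposited values. It was 4 to 7 for the OMM2.3 peaks (median 5) and 3 to 7 for those of 92.1 (median 4), where the lists had medians of 6 and 4. Of the 11 OMM2.3 peaks, 4 rested on 4 fragments (36.4%), where 8.91% of the list did. The IgG background was at its floor under 4 of 11 peaks in OMM2.3 (36.4%, and 35.3% of the list) and under 3 of 21 in 92.1 (14.3%, and 39.5% of the list). Repeated sequence underlay 2 of 11 and 1 of 21, where 22.8% and 14.8% of all peaks lay in it.

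**Figure D3:**
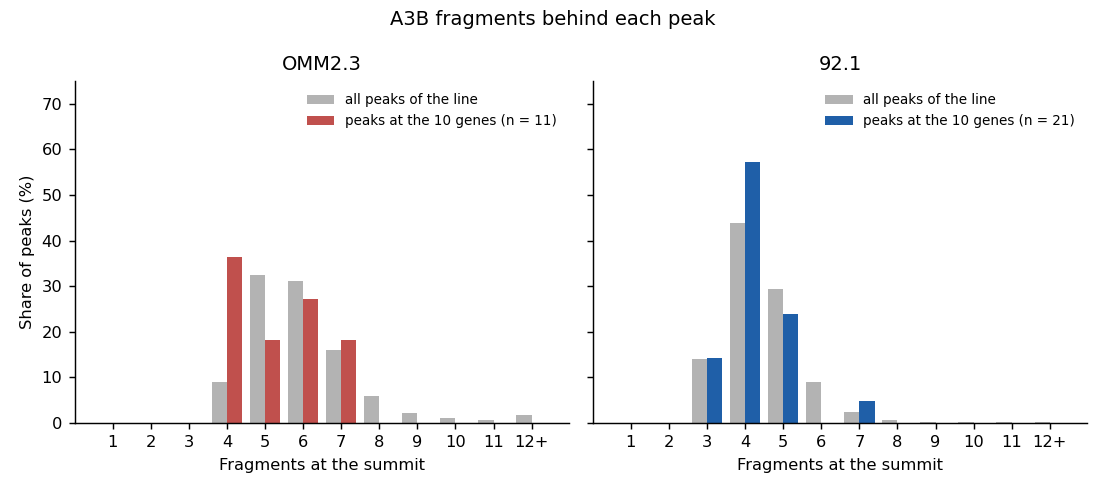
Share of peaks (%) by the number of A3B fragments at the summit, for all peaks of the line (grey) and for the peaks at the 10 genes (red, OMM2.3, n = 11; blue, 92.1, n = 21). The member peaks rest on 4 to 7 fragments in OMM2.3 and on 3 to 7 in 92.1, and the tail of 8 or more holds none of them.

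The density around the genes, on which each expectation rests, ranged widely in both lines. In OMM2.3 the flanks held from 10.0 peaks per Mb (SMUG1) to 49.0 (MBD4), with a median of 20.5 over all protein-coding genes. Below that median were UNG (12.5), XRCC1 (13), and TDG, POLB and LIG3 (14.5 each), and above it PARP1 (28.0), APEX1 (30) and REV1 (33). In 92.1 the flanks held from 32 peaks per Mb (REV1) to 106.0 (POLB), with a median of 55.0 over all protein-coding genes. PARP1 followed POLB with 99.5, and both lay above percentile 95 of all protein-coding genes (95.4 and 97.0).

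Across the genome 92.1 had 2.44 times the peaks of OMM2.3. Around POLB the ratio was 7.31 and around SMUG1 7.05, whereas around MBD4 it was 1.44 and around REV1 0.970. The 4 peaks at POLB in 92.1 and the 3 at REV1 in OMM2.3 were thus both near what their surroundings held, 4.21 and 3.16. Among genes with a peak, the windows themselves held from 10.5 peaks per Mb (REV1) to 117 (APEX1, from its single peak) in 92.1, and from 28.4 (LIG3) to 92.7 (PARP1) in OMM2.3.

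**Figure D4:**
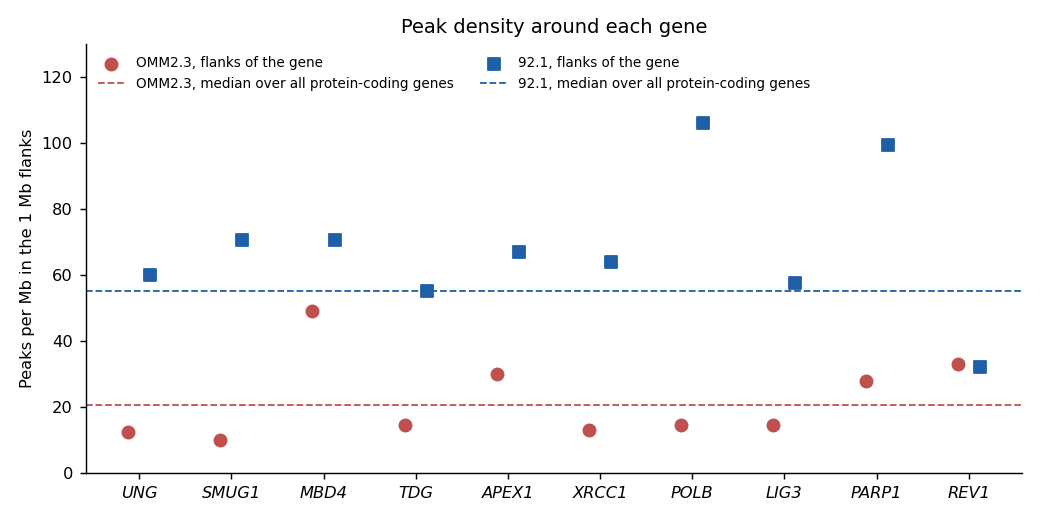
Density of A3B peaks (peaks per Mb) in the 1 Mb flanks of each gene, for OMM2.3 (red circles) and 92.1 (blue squares), with the median over all protein-coding genes of each line as a dashed line. POLB (106.0) and PARP1 (99.5) stand highest in 92.1, MBD4 (49.0) stands highest in OMM2.3, and at REV1 the lines meet at 33 and 32.

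The other genes of these pathways, a list of 37, were counted in the same way. In OMM2.3, 25 had a peak (67.6%), where 50.5% of all protein-coding genes did. Their 62 peaks stood against 67.8 expected, a ratio of 0.915 (0.701 to 1.17). In 92.1, 30 had a peak (81.1%), where 73.6% of all protein-coding genes did. Their 126 peaks stood against 123 expected, a ratio of 1.02 (0.8505 to 1.22). The only gene whose interval did not include its expectation was RAD18, the ubiquitin ligase that switches a stalled fork to translesion synthesis, with 2 OMM2.3 peaks against 7.59 expected. Over all protein-coding genes of OMM2.3, 0.529% lay below theirs. In 92.1 RAD18 had 7 against 5.74.

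By group, the 8 translesion and restart genes had 12 peaks against 18.6 expected in OMM2.3 (ratio 0.643, 0.332 to 1.12) and 29 against 30.9 in 92.1 (0.938, 0.628 to 1.35). The 7 other glycosylases had 4 against 5.12 and 9 against 9.02, and the 7 genes of abasic site and end processing 13 against 14.6 and 28 against 25.9. The 6 genes of gap filling and ligation had 5 against 7.03 and 14 against 18.5, and the 5 of ADP-ribosylation 2 against 2.41 and 8 against 8.32. The remaining 4 genes of the list had 26 against 19.97 (1.302, 0.8504 to 1.91) and 38 against 30.7 (1.24, 0.876 to 1.70), above the expectation in both lines, and all 4 had a peak in each. The interval of each of the 6 groups included its expectation in both lines.

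Per 10 kb of window, OMM2.3 peaks were most frequent at ADPRS, a hydrolase that removes ADP-ribose from serine (0.906, from 1 peak), at SAMHD1, which degrades deoxynucleotides (0.739, from 5), and at NTHL1, a glycosylase for oxidised pyrimidines (0.712, from 1). In 92.1, SAMHD1 (1.33, from 9) and POLH, the translesion polymerase for ultraviolet damage (1.19, from 6), were among the 3 genes of the list where they were most frequent. SAMHD1 was named in both lines, with 3.37 and 4.42 peaks expected there, and its intervals included both values.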

How the data were processed

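A3B ChIP-seq was deposited for OMM2.3 and 92.1, with 1 A3B and 1 IgG library per line (4 groups of 1 library). According to the methods and labels, the authors ran FastQC 0.11.9 on the paired-end reads, aligned these to GRCh38 with Bowtie2 2.2.5, used Sambamba to remove duplicates, and called peaks with MACS2 2.2.7.1 (p of 0.05) for each A3B library over the IgG of the same line, without pooling. The deposited score of a peak was not used in the results. The deposited fold enrichment is a ratio with 1 added to fragments and background. The −log10 p-value and the −log10 q-value, as deposited, are given by MACS2 for the summit and depend on how the authors scaled the libraries, so they rank peaks within a list only.

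Genes were taken from GENCODE version 44. The expected number of peaks was the sum, over peaks whose summit lay within 1 Mb on either side of a gene window, of the window length plus peak width minus 1, divided by the flank length outside assembly gaps. Peaks are not independent replicates, and intervals are exact 95% Poisson intervals of the observed count. For a ratio, both limits were divided by the expectation, which was taken as exact. Placement of a summit used the canonical transcript. A peak was counted as repeated when 50% or more of the 32-mers in its 201 bp summit window were found at several places in the genome. Fragment numbers were recovered from fold enrichment and −log10 p with a tolerance of 0.002, for 99.9591% of OMM2.3 peaks (scaling 0.8671, background floor 1.053) and 99.9927% of 92.1 peaks (scaling 1, floor 0.877). For 92.1 a scaling of 0.5 with doubled numbers gave the deposited values in 99.9927% of peaks too, 99.9985% of them even, and the lower numbers were taken. Promoter windows came from RefSeq.

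The 10 genes, the list of 37 and the alternatives were chosen with earlier results of these data known. Named genes were the 10, the 3 of the list with most peaks per 10 kb in each line, and any outside its interval. The 3 sequences shown were chosen, after their values were seen, from 9 that met a rule on strength and distance to a start, outside untranslated regions and chromosome 8. Some items that these rules name are not reported here. Alternatives changed the extension, the p or q threshold, the flanks, the repeats kept and the motif. The counts and the recovery were tested on simulated data. Computation used Python 3.11.15, numpy 2.4.6, scipy 1.17.1, pandas 2.3.3, numba 0.67.0, pysam 0.24.0 and matplotlib 3.10.9.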

Additional observations from a re-analysis of the deposited data

Results flagged for a closer look

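Over the 10 genes, OMM2.3 peaks stood above their local expectation (ratio 1.23) and 92.1 peaks below it (0.746). At PARP1 the lines likewise lay on opposite sides, at 3.29 in OMM2.3 and 0.370 in 92.1. TDG and APEX1 lay the other way, with ratios of 1.24 and 1.69 in 92.1 and 0 peaks in OMM2.3. With 1 library per line none of these differences was tested, and of these ratios only that of PARP1 in OMM2.3 had an interval that did not include 1.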

How the results depend on the processing

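Of 120 alternatives to 15 results, 94 were labelled as the same and 22 as moved. Under the other 4 the ratio of PARP1 in OMM2.3 stayed above 1 while its interval came to include 1. A count was the same within a fixed factor of its main value, and a number of shared peaks only when equal. A ratio was the same inside the interval of the main result, even on the other side of 1, and a TC mean within 1 SD. The peak threshold moved most. Peaks at the 10 genes fell to 6 in OMM2.3 and 13 in 92.1 at a p of at most 0.01, to 2 and 5 at 0.001, and to 0 and 0 at a q of at most 0.05. Genes with a peak numbered 2 and 5 at a p of at most 0.001 and 0 and 0 at that q, and of the list of 37 they numbered 15 and 17, then 0 and 0. At that q the ratio to the expectation was 0 for the 10 genes in 92.1 and 0 for the list of 37 in both lines, while OMM2.3 gave none for the 10 genes for want of peaks in the flanks. Over all other alternatives that ratio for the 10 genes lay between 0.789 and 1.44 in OMM2.3 and between 0.598 and 0.923 in 92.1. In OMM2.3 it went below 1 at a p of at most 0.01 (0.854) or 0.001 (0.789) and without PARP1 (0.805). Against the whole chromosome, the list of 37 had a ratio of 1.18 in OMM2.3. For PARP1 in OMM2.3 the ratio was 2.62 with 10 kb of extension, 1.505 at a p of at most 0.01, 2.79 with flanks of 500 kb and 2.90 with flanks of 2 Mb, with the expectation then inside the interval. Gaps of at most 200 bp counted as shared gave 1 shared peak in each line. TCA in place of TC gave 4.16 and 3.44 per 100 bp, since it is the longer motif. The cause of the other changes was not tested beyond fewer peaks at stricter thresholds. Counting over the canonical transcript, leaving out PARP1 and all alternatives for PARP1 were chosen after seeing the data. No paired analysis was possible because there was 1 library in every group, and no library could be left out. Summits of 3 to 7 fragments limit what any single peak shows.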
